A study of Mus musculus with 15 samples.

Results

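Of 33334 distinct restriction fragments that promoter-capture Hi-C paired with mouse gene promoters, 1117 carried an interaction score in Basal libraries only. A fragment was taken when at least 2 of the 3 Basal libraries scored it and none of the 12 Early, Late and Reactivated libraries did. These fragments made up 33.7% of the 3312 fragments scored in 2 or more Basal libraries and 3.35% of all fragments. They were chosen by the measured scores, so their Basal scores and their absence elsewhere are given as a description, with no test.

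Promoter-capture Hi-C cuts and rejoins fixed chromatin, so that DNA segments lying close together in the nucleus are sequenced as one molecule, and enriches molecules that hold a chosen promoter. The libraries came from hippocampal nuclei sorted with antibodies to NeuN, a protein of neuronal nuclei, and to GFP, which also detects the yellow fluorescent protein eYFP. Basal had 3 libraries, and Early, Late and Reactivated had 4 each. Tissue of 10 to 12 mice was pooled to obtain 10000 nuclei per condition, and 10000 RNA baits were aimed at about 5000 promoters.

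All groups came from mice of the strain ArcCreERT2 x R26R-STOP-floxed-eYFP, labelled +/+. In this cross a tamoxifen-dependent recombinase is made where the Arc gene is active, and recombination leaves a cell permanently making eYFP, so the label reads Arc activity and not memory itself. Per the protocol, mice were kept in the dark for 24 h and were given 4-hydroxytamoxifen 1 h ahead of contextual fear conditioning. Collection followed after 1.5 to 2 h or after 5 days, with or without renewed exposure to tone and context. The labels do not state how Basal mice were treated or which group belongs to which interval. Ages are not given in the labels. The treatment entries assign each library its own collection day and no recall, which conflicts with the protocol, so groups were read from the sample titles. The scores are not expression values, so marker genes could not be used to check the sorted cell type.

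Enhancers and other regulatory elements can lie far from the genes they act on, and looping of chromatin brings them near promoters. Such contacts differ between cell types and can change when neurons are active. A fragment found with a promoter is a candidate for such an element, but proximity in the nucleus alone does not show regulation.

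The 12 fragments with the highest mean score on the inverse hyperbolic sine scale (asinh, close to a log scale for large scores) among those scored in all 3 Basal libraries were paired with promoters including Nktr, Casq1, Slc25a36 and Sp1. These 4 promoters are shown because their fragments were the highest scored of this kind, once Rps19, whose pairing is uncertain, and promoters with no entry were left out. Each sequence is the 250 bases before the RefSeq start of the gene, on build GRCm38.p6, read 5′ to 3′ on the gene's strand. Capitals mark matches on either strand to GGGCGG, the GC box bound by Sp1-type factors, and to TGACGTCA, the cyclic AMP response element.
Nktr promoter, chr9:121718931-121719180, plus strand: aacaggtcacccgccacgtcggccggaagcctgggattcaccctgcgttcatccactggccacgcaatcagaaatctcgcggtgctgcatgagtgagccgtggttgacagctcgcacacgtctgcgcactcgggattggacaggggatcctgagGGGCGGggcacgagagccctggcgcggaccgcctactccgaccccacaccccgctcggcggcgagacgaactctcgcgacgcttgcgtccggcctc
Casq1 promoter, chr1:172219896-172220145, minus strand: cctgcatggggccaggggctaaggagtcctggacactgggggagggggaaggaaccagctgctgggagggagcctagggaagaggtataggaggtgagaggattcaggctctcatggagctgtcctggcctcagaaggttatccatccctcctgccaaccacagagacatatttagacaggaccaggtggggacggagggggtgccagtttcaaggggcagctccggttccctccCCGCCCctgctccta
Slc25a36 promoter, chr9:97111042-97111291, minus strand: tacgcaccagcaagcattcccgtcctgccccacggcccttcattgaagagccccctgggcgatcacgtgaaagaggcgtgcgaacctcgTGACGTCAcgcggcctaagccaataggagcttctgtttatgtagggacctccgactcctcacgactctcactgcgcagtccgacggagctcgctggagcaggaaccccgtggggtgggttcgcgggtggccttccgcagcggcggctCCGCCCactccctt
Sp1 promoter, chr15:102406066-102406315, plus strand: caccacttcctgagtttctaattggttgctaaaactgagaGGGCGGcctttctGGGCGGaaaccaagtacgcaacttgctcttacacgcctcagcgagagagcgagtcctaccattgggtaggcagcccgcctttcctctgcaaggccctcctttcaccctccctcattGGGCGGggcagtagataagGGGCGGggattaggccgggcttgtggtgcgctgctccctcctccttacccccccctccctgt

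The Sp1 promoter held 4 matches to the GC box, and the Slc25a36 promoter held 1 GC box and 1 cyclic AMP response element. RefSeq promoter sequences were matched for 691 of the 954 promoters with a Basal-only fragment and for 2571 other listed promoters. In windows of 300 bases, both strands, the GC box GGGCGG was present in 69.0% of the promoters with a Basal-only fragment, in 61.3% of the other listed promoters and in 35.9% of 27025 RefSeq promoters. The cyclic AMP response element TGACGTCA was present in 3.47%, 3.15% and 1.88% in the same order. TGANTCA, which takes in the AP-1 motif but allows any middle base, was present in 3.18%, 4.59% and 7.93%. TATAAA, the TATA box, was present in 6.08%, 9.33% and 14.2%. The palindromic NRF1 motif was present in 2.03%, 1.44% and 0.977%. Overlapping matches were counted as present for each motif. Median GC content was 63.7% in the promoters with a Basal-only fragment and 60.3% in the other listed promoters. These shares were not tested against each other, and a match is a run of letters, not a shown binding site.

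Most Basal-only fragments were those of Basal 1 and Basal 2. Both of these libraries scored 1093 of the 1117 fragments, 97.9%, and 1009 were scored in these libraries and not in Basal 3. All 3 Basal libraries scored 84, Basal 1 and 3 alone 20, and Basal 2 and 3 alone 4. Without Basal 1 the rule left 88 fragments, without Basal 2 it left 104, and without Basal 3 it left 1093.

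Scores were unequal among the Basal libraries. In Basal 1 the Basal-only fragments had a median score of 302 (quartiles 132 and 655, range 2 to 3884, n = 1113 fragments). The median was 182 in Basal 2 (quartiles 79 and 395, range 2 to 2188, n = 1097) and 11.5 in Basal 3 (quartiles 7.75 and 21.25, range 3 to 142, n = 108). Basal 3 listed more fragments than the others, 5259 against 3903 and 3477, but its scores summed to 110226 against 1857343 and 1033387.

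Scores of Basal 1 and Basal 2 ran in parallel from fragment to fragment. Where both scored a Basal-only fragment, Basal 1 was higher in 1073 of 1093 cases, by a median ratio of 1.69 (quartiles 1.56 and 1.85). Pearson's r of the log scores was 0.987 and Spearman's rho 0.990 across these 1093 fragments, which share the 2 libraries and their fragment lengths. Basal 1 and Basal 3 gave r = -0.11 and rho = -0.08 across the 104 fragments they had in common, and Basal 2 and Basal 3 gave r = -0.08 and rho = -0.05 across 88. Basal 1 and 2 are counted as separate libraries here because the labels list them so. The labels call replicates biological but do not say which material Basal 1 and 2 had in common, and its part in these counts was not tested. If they are 1 sample, a score in both is no second observation, and the rule with Basal 3 required gave 108 fragments.

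**Figure D1:**
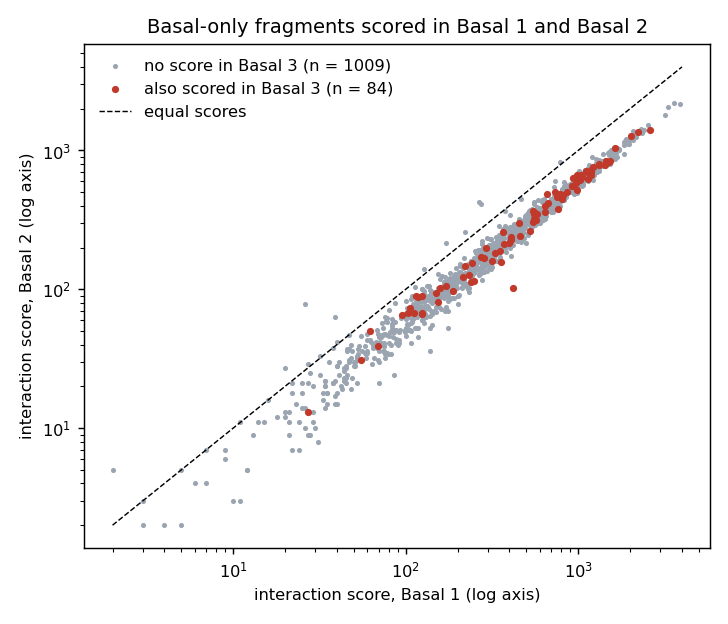
Interaction scores of the 1093 Basal-only fragments scored in both Basal 1 (x axis, log) and Basal 2 (y axis, log), 1 point per fragment, with red points for the 84 also scored in Basal 3 and a dashed line at equal scores. Points form a narrow band below the dashed line, with a median ratio of 1.69, and the red points spread along all of it.

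Sharing between paired libraries was a feature of every group. Basal 1 and 2 had 3173 fragments in common, 91.3% of the smaller library, of which 34.4% were scored in no other group. The same figure was 45.0% for Early 3 and 4, 63.3% for Late 1 and 2, 44.8% for Late 3 and 4, 54.7% for Reactivated 3 and 4 and 65.6% for Reactivated 1 and 2, which shared 32 fragments. For Basal 1 and 3 it was 16.3%, or 104 of 640 fragments. Applied to the other groups, the same rule found 1934 Early-only, 3796 Late-only and 5274 Reactivated-only fragments, which were 44.5%, 48.5% and 54.7% of those scored in 2 or more libraries of the group. Those groups have 4 libraries where Basal has 3, so these counts describe the table and do not rank the groups.

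Among the fragments scored by all 3 Basal libraries, the highest belonged to Rps19, a protein of the small ribosomal subunit. Its fragment at chr18:40685838-40693182 (mm9, as are all fragment positions) scored 2027 in Basal 1, 1282 in Basal 2 and 34 in Basal 3. The table lists fragments of this promoter on chromosomes 18 and 7, so its pairing is uncertain. Nktr, which encodes a cyclophilin-related surface protein of natural killer cells, was paired with chr9:121658997-121661343, scored 1627, 1039 and 42 in Basal 1, 2 and 3. For Il17ra, the receptor of interleukin-17, chr6:120478485-120480419 scored 2620, 1393 and 16. In each case Basal 3 was far below the other libraries.

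Casq1 encodes calsequestrin, a calcium-binding protein of the sarcoplasmic reticulum. Its fragment chr1:174138640-174144769 scored 1502, 830 and 22 in Basal 1, 2 and 3. Trove2, which encodes an RNA-binding protein, had chr1:145662482-145663455 with 919, 556 and 47. Slc25a36, a mitochondrial carrier of pyrimidine nucleotides, had chr9:96377900-96378432 with 2232, 1366 and 7. The order of the libraries was the same in all of these, whereas the size of the gap to Basal 3 varied widely.

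The transcription factor gene Sp1 stood apart by distance and by its score in Basal 3. Its fragment chr15:37947808-37948359 scored 564, 356 and 88, and it lay 26.2 Mb from the nearest fragment of the Sp1 promoter scored in another group. Of the other promoters in the group of 12, Shfm1 (1050, 649 and 33), Plcl1 (1434, 792 and 12), Ap1g2 (867, 502 and 28) and St7 (1536, 845 and 9) had their fragments 2.91 to 15.6 kb from one scored in another group. The fragment listed with both Acot4 and Mlh3, an acyl-CoA thioesterase and a mismatch repair protein, scored 1318, 804 and 10, and its score cannot be assigned to either promoter.

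**Figure D2:**
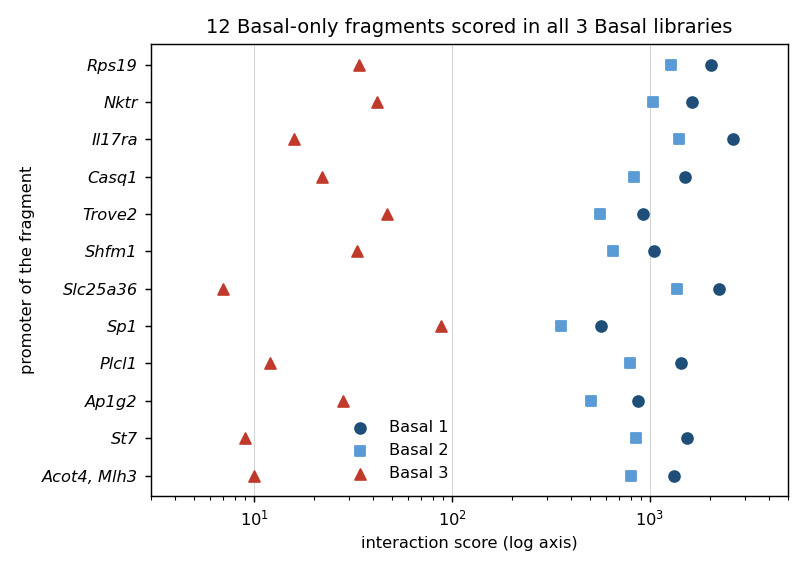
Interaction scores (x axis, log) of the 12 Basal-only fragments with the highest mean asinh score among those scored in all 3 Basal libraries, by promoter (y axis), with circles, squares and triangles for Basal 1, 2 and 3. Basal 1 is the highest and Basal 3 the lowest for each of the 12, from 88 for Sp1 to 7 for Slc25a36 in Basal 3.

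Among fragments that Basal 1 and 2 scored and Basal 3 did not, the highest scores were found at Csgalnact1, an enzyme that starts chondroitin sulphate chains. Its fragment chr8:71245777-71248073 scored 3884 and 2162. Arpp19, a phosphoprotein that inhibits protein phosphatase 2A once phosphorylated, followed with 3582 and 2188 at chr9:74874995-74877595. The fragment chr19:29887091-29888145 scored 3331 and 2063 but was listed with Ermp1, Gldc, Minpp1 and Ranbp6 together. Mybpc1, a myosin-binding protein of slow muscle, had 3199 and 1796, and Vps33b, a protein of vesicle trafficking, had 2546 and 1524. Adam23, a neuronal cell surface protein, had 2400 and 1411, Tubb3, the neuronal beta-tubulin, had 2317 and 1434, and the chemokine receptor gene Ccr2 had 2350 and 1347. Basal 1 was the higher library for all 8. The Adam23 fragment lay 1.74 Mb, and the Ccr2 fragment 34.1 Mb, from the nearest fragment of the same promoter scored in another group.

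Of the 20 and 4 fragments that joined Basal 3 to only Basal 1 or only Basal 2, the 6 highest scored were all of the first kind. The antiviral gene Rsad2 had 1219 in Basal 1 and 15 in Basal 3 at chr12:104786091-104790053, 77.6 Mb from the nearest Rsad2 fragment scored in another group. The protease gene Klk14 had 956 and 14 at a gap of 21.8 Mb, and Scin, an actin-severing protein, had 1073 and 11 at 44.2 Mb. Closer to other fragments were Hpcal4, a neuronal calcium sensor, with a Basal 3 score of 62, the highest of these 6, at 0.57 Mb, and Traf3ip1, a protein of ciliary transport, with 475 and 24 at 19.5 kb. Grik2, a kainate receptor subunit, had 503 in Basal 1 and 18 in Basal 3 at chr10:49287805-49290918. None of these 6 was scored in Basal 2.

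The threshold of the rule was a single listed score. The Basal-only fragments with the lowest scores were those of Pkia, an inhibitor of protein kinase A (3 in Basal 1 and 2 in Basal 2), Ppfibp1, a liprin (3 and 3), Ufd1l, a protein of ubiquitin-dependent degradation (2 and 5), and Tspan7, a membrane tetraspanin (5 and 2). Just outside the rule lay a Taf4a fragment with 1153, 795 and 13 in the Basal libraries and a score of 2 in Reactivated 4. A Minpp1 fragment with 2256 and 1288 was left out for a score of 2 in Reactivated 3, a Slc3a2 fragment with 1610 and 974 for 2 in Late 4, and a Nol10 fragment with 1362 and 942 for 2 in Late 3. Counting scores under 5 elsewhere as absent raised the number from 1117 to 1172.

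Of the fragments scored in 2 or more Basal libraries, 2195 were also scored in another group. Of these, 478 were scored in 1 other library and 947 in 2. Early alone among the other groups scored 517, Late alone 467 and Reactivated alone 448, and 189 were scored in all 3. Early 1 was the sole other library for 196 of them. Without Early 1 the Basal-only fragments numbered 1313, and without Reactivated 3 and 4 together, an alternative chosen after seeing the data, 1559.

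Most other libraries scored Basal fragments about as often as they scored the fragments of the table. Each fragment is in the table because some library scored it, so a library's own fragments raise its share of all fragments. That share is therefore no background rate. Reactivated 3 and 4 scored 27.6% and 28.4% of the 3312 fragments, beside 30.1% and 31.5% of all fragments in the table. Late 3 and 4 scored 21.5% and 21.7%, beside 21.5% and 21.7%. Early 3 scored 17.3% beside 14.6%, Early 1 scored 17.1% beside 18.2%, and Early 4 scored 16.9% beside 17.6%. Late 1 and 2 scored 6.82% and 7.16%, beside 8.98% and 9.77%. Reactivated 1 and 2 scored 0.121% and 1.09% and thus decided almost none of the absences. Libraries listed between 32 and 10514 fragments, with sums of scores between 3097 and 8218430, and a fragment can lack a score for want of depth. No source used here gives the read depth, and its part in the absences was not tested.

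**Figure D3:**
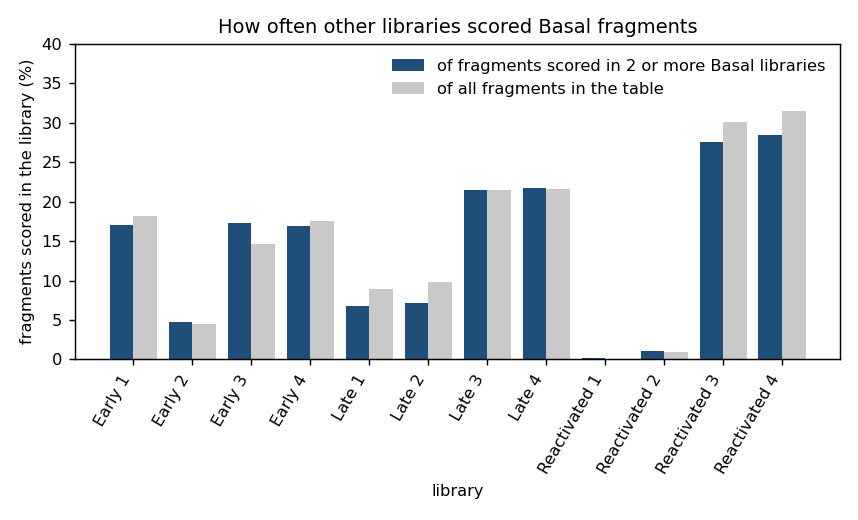
Share of fragments scored by each of the 12 Early, Late and Reactivated libraries (y axis, %), in dark bars for the 3312 fragments scored in 2 or more Basal libraries and in grey bars for all 33334 fragments. The bars of a library are of similar height, from 0.121% and 0.0960% in Reactivated 1 to 28.4% and 31.5% in Reactivated 4.

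The Basal-only share was similar at low and high Basal scores and for short and long fragments. With fragments split at the quartiles of mean Basal score it was, from the lowest scores to the highest, 35.7%, 35.2%, 31.6% and 32.4%. Split at the quartiles of length it was, from the shortest to the longest, 36.6%, 33.7%, 32.6% and 32.0%. Basal-only fragments had a median length of 2931 bp (quartiles 1442 and 5734), beside 3249 bp for Basal fragments also scored elsewhere and 2939 bp for all fragments. Their median score was lower than that of the fragments also scored elsewhere, 302 against 370.5 in Basal 1 and 182 against 221 in Basal 2.

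By chromosome, the Basal-only share of Basal fragments was highest on chromosome 17 (48 of 100, 48.0%) and chromosome X (29 of 64, 45.3%), followed by chromosome 4 (87 of 206, 42.2%). It was lowest on chromosome 7 (38 of 187, 20.3%) and chromosome 11 (67 of 255, 26.3%). All 19 autosomes and chromosome X held some.

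The table used here does not give bait positions, so distance was measured from the middle of a promoter's other listed fragments, for promoters with at least 5 of them. On this measure 38.5% of 999 Basal-only listings (a listing is a pair of a promoter and a fragment) lay within 100 kb and 49.8% between 100 kb and 1 Mb. A further 46 lay 1 to 10 Mb away and 70, or 7.01%, more than 10 Mb away. The median was 158 kb (quartiles 59.2 and 337), beside 102 kb for Basal fragments also scored elsewhere, of which 49.5% lay within 100 kb. For the remaining listings of the table the median was 221 kb, with 31.8% within 100 kb and 14.0% more than 10 Mb away, so the Basal-only fragments lay between these sets. The most distant Basal-only fragments had the highest median scores. The median of their mean Basal score was 353 beyond 10 Mb and 345 at 1 to 10 Mb, beside 241 at 100 kb to 1 Mb and 226 within 100 kb. For Basal fragments also scored elsewhere these medians were 252 beyond 10 Mb and 258 within 100 kb. The means leave out libraries without a score. Basal 3, with its low scores, entered them for 108 of the 1117 Basal-only fragments and 571 of the 2195 also scored elsewhere. Its part in these medians was not tested.

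Many Basal-only fragments had a close neighbour that another group scored with the same promoter. For 131 of the 1117, or 11.7%, that neighbour abutted (a gap of at most 3 bp in the table), for 30.3% it lay within 10 kb, and for 58.0% within 50 kb. The median gap was 29.7 kb (quartiles 5.56 and 113), and 19 fragments had no such neighbour. Early-only, Late-only and Reactivated-only fragments abutted in 12.6%, 11.8% and 12.9% of cases by the same measure, with median gaps of 36.7, 37.7 and 29.0 kb. Of the 147 abutting listings, 76 had a neighbour scored by Early libraries, 68 by Late and 74 by Reactivated libraries, and for 38 a Basal library scored it as well.

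At Casq1 the fragment 3 bp beyond the Basal-only one scored 238 in Early 1, 2301 in Reactivated 3 and 3184 in Reactivated 4, and nothing in Basal. At Arpp19 the abutting fragment scored 43, 444 and 239 in Early 1, 3 and 4 and 130 and 110 in Late 3 and 4. At Rab2a, a small GTPase of the Golgi, the Basal-only fragment scored 1320, 781 and 10 and its neighbour 1966 and 2501 in Reactivated 3 and 4. The neighbour of the Grik2 fragment scored 8 in Basal 3, 348 in Late 3 and 210 in Late 4. Strong scores thus sat on adjoining fragments in different groups at these promoters. At other promoters the neighbour was weak, as at Nr4a2, where it scored 11 in Reactivated 4 alone, and at Acot4, where it scored 8 in Late 3 alone.

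Few Basal-only fragments lay side by side with each other. They are 3.35% of all fragments, and no other set was measured in this way. Of 1097 pairs of neighbouring ones, 5 abutted and 23 lay within 10 kb, with a median gap of 980 kb. Ier5, an immediate early gene, had an abutting pair at chr1:156848962-156853938 and chr1:156853941-156862364, scored 1591 and 976 for the first and 561 and 371 for the second in Basal 1 and 2. Nr3c1, the glucocorticoid receptor gene, had a pair scored 194 and 125 beside 75 and 36. Pairs of different promoters abutted for Tmem70 (754 and 411) with Ube2w (928 and 538), and for Fance (442 and 224) with Zfp523 (415 and 254).

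The 1117 fragments were listed with 954 of the 4429 promoters, 21.5%, in 1172 listings. A single promoter was listed for 1088 of them and several for 29, up to 5, and scores of the latter cannot be assigned to a promoter. Of the 954 promoters, 769 had 1 Basal-only fragment, 158 had 2, 23 had 3, 2 had 4 and 2 had 5. Promoters with a Basal-only fragment had more listed fragments, a median of 11 beside 6, and a promoter with more fragments has more chances of such a fragment. Most were seen in the other groups through other fragments. These were scored for 90.8% of the promoters by Early libraries, for 92.6% by Late and for 89.7% by Reactivated libraries, and for 81.1% by all 3 groups. Of the promoters without a Basal-only fragment, which have fewer listed fragments, 80.7%, 85.6% and 81.5% had a fragment scored by Early, Late and Reactivated libraries.

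Gtdc1, a glycosyltransferase-like gene, had 5 Basal-only fragments of 33 listed. The strongest scored 1631 and 870 in Basal 1 and 2 at chr2:46208609-46214651, 1282 and 729 at chr2:46244990-46251917, and 1499 and 967 at chr2:123927693-123927898. The last lay 41.9 Mb from the nearest Gtdc1 fragment scored in another group. The remaining fragments were weaker, 167 and 87 for one and 42 and 20 for the other. Next to the weakest, an abutting fragment scored 1254 and 1717 in Reactivated 3 and 4.

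Lrrc16a, which encodes an actin capping protein regulator, had 5 of 36. Its scores in Basal 1 and 2 were 1683 and 895, 559 and 328, 330 and 184, 329 and 192, and 140 and 85. The strongest lay 45.0 Mb from the nearest Lrrc16a fragment scored in another group, whereas the others lay within 15 kb of one. Serinc1, a membrane protein linked to serine incorporation, had 4 of 33, with 1842 and 1089 at the highest. Nkain3, a protein that interacts with the sodium pump, had 4 of 38, with 432 and 252 at the highest. Tgfbr3, the betaglycan co-receptor for TGF-beta, had 3 of 9, of which the highest (941 and 489) was listed with Ephx4 as well.

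**Figure D4:**
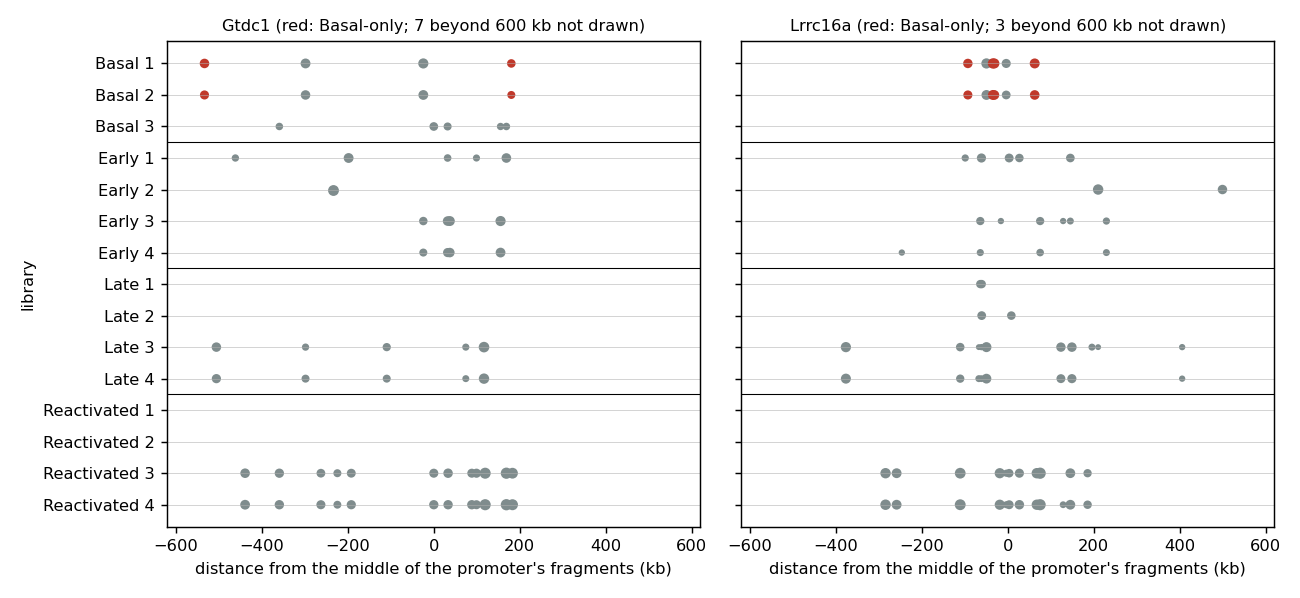
Fragments of Gtdc1 and Lrrc16a in each of the 15 libraries (y axis) by distance from the middle of the promoter's fragments (x axis, kb), 1 point per scored fragment, larger for higher scores on a log scale, red for Basal-only fragments. Red points lie among grey points of the other groups, and fragments beyond 600 kb are not drawn (7 for Gtdc1, with its 3 strongest Basal-only fragments, and 3 for Lrrc16a, with its strongest).

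Among promoters with at least 5 listed fragments, P2ry4, a nucleotide receptor gene, had the largest Basal-only share, 3 of 6, or 50%. Its Basal-only fragments scored 469 and 298, 477 and 287, and 30 and 10 in Basal 1 and 2. The other 3 P2ry4 fragments were scored in Late 1 or 2 only, between 10 and 14. Kcnj6, a potassium channel subunit coupled to G proteins, had 2 of 5, both weak (24 and 7, and 18 and 12), and its other fragments scored between 2 and 8. Pde1b, a calmodulin-dependent phosphodiesterase, had 2 of 5, with 1472 and 800 at chr15:65022180-65036237 and 33 and 18 for the other. Adam17, the sheddase of tumour necrosis factor, had 2 of 5, with 402 and 240 and with 245 and 139. Abcf1 (326 and 171, and 11 and 3) and Pfas (135 and 74, and 157 and 95) had 2 of 5 each, as did Rrp7a, and both Pfas fragments were listed with further promoters.

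For 17 promoters no fragment at all was scored in Early, Late or Reactivated, and 15 of the 954 had only Basal-only fragments. Crym, which encodes a thyroid hormone binding protein, had 2 such fragments, scored 601 and 331 and 150 and 74. Nefh, the heavy neurofilament subunit, also had 2, scored 287 and 194 and 122 and 75. With a single listed fragment, Oprl1, the nociceptin receptor, had 535 and 350, and Lin28b, an RNA-binding protein of early development, had 422 and 284. Rock1, a kinase acting on the cytoskeleton, had 90 and 40, and Grin2d, an NMDA receptor subunit, had 5 and 5. Cdyl, Cnot2, Dpf1, Mtmr14, Paip1, Slc39a1, Syne2, Wdr5b and Zfp945 also had 1 fragment each, and Tbcd and Tspan7 had a further fragment scored in Basal alone. Each of these 17 promoters had only 1 or 2 listed fragments, beside a median of 11 for promoters with a Basal-only fragment.

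Gene lists were set beside the 21.5% of all promoters with a Basal-only fragment and the 33.7% of Basal fragments that were Basal-only, with no test. Glutamate receptors had 10 of 23 promoters with a Basal-only fragment, and 11 of their 22 Basal fragments, 50%, were Basal-only, with a median of the mean Basal score of 162 beside 236 for all Basal-only fragments. Grm2, an autoreceptor that lowers glutamate release, had the highest scores, 1315 and 789 in Basal 1 and 2 at chr9:106561407-106574458. The AMPA receptor subunit gene Gria4 had 1036 and 652 at chr9:5294330-5297173. Grik3, a kainate receptor subunit, had 740 and 414 at a position 69.6 Mb from the nearest Grik3 fragment scored in another group. Gria3 had 396 and 225, Grm7 206 and 118, Grik4 109 and 64, Grm3 55 and 46, and Grin3a 64 and 29 and 32 and 33.

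Immediate early and activity-regulated genes, which neurons switch on within minutes of stimulation, had 10 of 27 promoters and 11 of 26 Basal fragments, 42.3%. Nr4a2, a nuclear receptor of this class, had 1912 and 1164 at chr2:57031041-57032167. Npas4, a transcription factor induced by calcium influx, had 817 and 456 at chr19:4626400-4629911. Nr4a3 had 320 and 194, Sik1 238 and 161, Nfil3 218 and 167, Maff 132 and 64, Jund 128 and 139, Egr4 114 and 104 and Dusp5 38 and 21. None of these named fragments was scored in Basal 3.

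Cell adhesion and axon guidance genes had 16 of 66 promoters and 22 of 49 fragments, 44.9%, with a median of the mean Basal score of 336. Plxna2, a semaphorin receptor, was scored in all 3 libraries with 646, 397 and 22. Robo1, a receptor for Slit repellents, had 1263 and 868, and Cntn4, a contactin, had 1148 and 752. Homeobox and nuclear receptor transcription factors had 17 of 63 promoters and 24 of 60 fragments, 40%, including Foxj1 (546, 365 and 7) and Foxp1 (1047 and 665).

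Ion channels had 13 of 68 promoters and 18 of 57 fragments, 31.6%. Kcnip4, a potassium channel partner, had 1154 and 695, Cacna2d3, a calcium channel subunit, had 787 and 829, and Kcnn2, a calcium-activated potassium channel, had 826 and 443. Cacna2d3 was among the few with a higher score in Basal 2. GABA and glycine receptors and GABA synthesis had 3 of 12 promoters and 4 of 12 fragments, with Gabrb2 at 320 and 214. Kinases of synaptic and stress signalling had 13 of 59 promoters and 17 of 51 fragments, 33.3%, among them a fragment listed with both Camk2g and Synpo2l (1388 and 773). Protein phosphatases had 10 of 43 promoters and 11 of 47 fragments, 23.4%, led by Ptprg (1537 and 797).

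Among the lists with at least 10 Basal fragments, the lowest shares were found for cytoskeleton and motor proteins, with 6 of 37 promoters and 7 of 42 fragments, 16.7%, and for synaptic vesicle and postsynaptic scaffold genes, with 5 of 36 and 5 of 24, 20.8%. Tubb3, described above, belongs to the first, and Sv2a, a synaptic vesicle glycoprotein scored 982, 669 and 9, to the second. Small GTPases and their regulators had 21 of 94 promoters and 20 of 78 fragments, 25.6%, with Rab11fip2 at 1522 and 855. Solute carriers had 21 of 103 and 26 of 106, 24.5%. Ubiquitin and proteasome genes had 20 of 106 and 24 of 101, 23.8%, with the ligase gene Rnf10 at 2080 and 1388. G protein-coupled receptors and cyclic nucleotide enzymes had 13 of 68 and 15 of 45, 33.3%, with Pde7a at 916 and 563.

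Chromatin modifiers and remodellers had 10 of 47 promoters and 13 of 40 fragments, 32.5%. Chd5, a neuronal remodeller, had 1737 and 1033, Trim28, a co-repressor, had 663, 483 and 12, and Phf13 had 244, 154 and 61. Of 3 genes for cohesin, its loading and looping factors, Yy1 had a Basal-only fragment, scored 299 and 173. Zinc finger proteins had 25 of 151 and 29 of 104, 27.9%, and Zbtb26 had the highest Basal 3 score of any Basal-only fragment, 142, above its 124 and 90 in Basal 1 and 2. RNA-binding and splicing factors had 15 of 55 and 18 of 53, 34.0%, with the neuronal splicing factor Nova1 at 1879 and 1154. Ribosomal proteins and translation factors had 15 of 61 and 15 of 44, 34.1%, a list that by its name pattern also takes in the kinase genes Rps6ka6 and Rps6kl1. Mitochondrial respiration, ribosome and import genes had 11 of 53 and 12 of 43, 27.9%, with Ndufb5, a subunit of complex I, at 1881 and 1180.

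**Figure D5:**
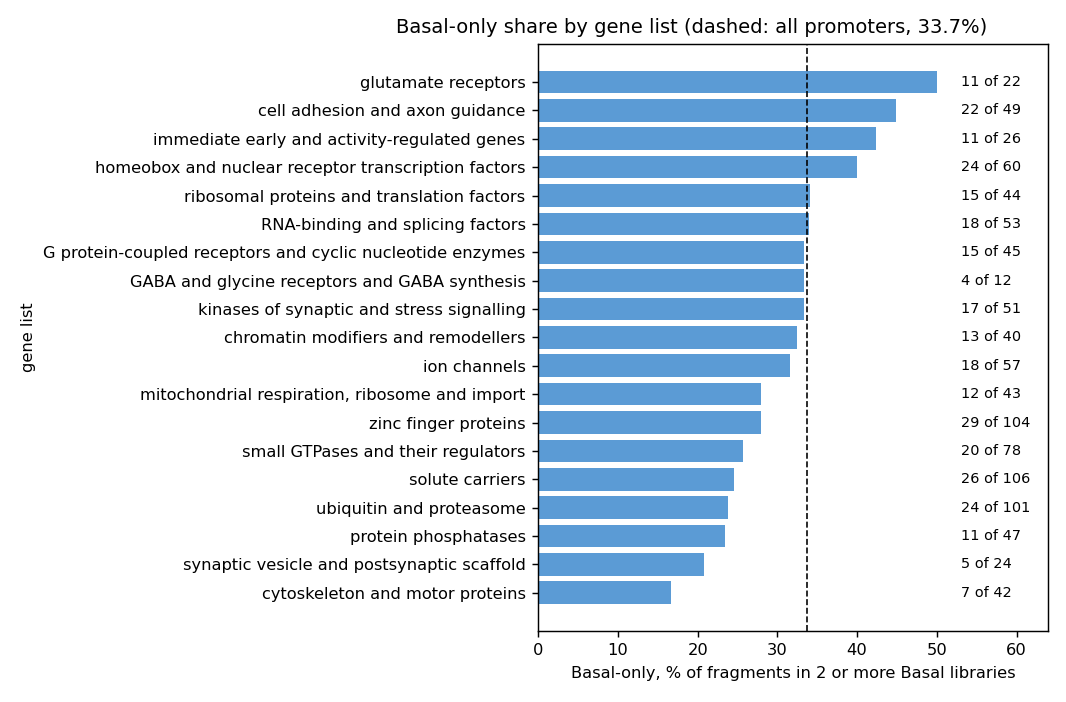
Basal-only share (x axis, %) of the fragments scored in 2 or more Basal libraries for each gene list with at least 10 such fragments (y axis), with the counts at the right and a dashed line at 33.7% for all promoters. Shares run from 16.7% for cytoskeleton and motor proteins to 50% for glutamate receptors.

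Promoters of cell type markers were few. Of 8 excitatory neuron markers Slc17a7, a vesicular glutamate transporter, had a Basal-only fragment (124 and 60), and its abutting neighbour scored 11 in Basal 3, 158 in Late 3 and 136 in Late 4. Of 10 interneuron markers Lhx6 (14 and 11) and Pvalb (424 and 295, listed with 3 further promoters) had one. Oligodendrocyte markers with one included Mobp (1199 and 698) and Pdgfra (256 and 137). Of 8 astrocyte markers S100b did (20 and 13), and none of 3 microglia and endothelial markers did. These are promoter contacts and give no measure of which cells were present, so the part of other cells in the Basal-only set was not tested.

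The rule uses no comparison among Early, Late and Reactivated, so the other fragments of the same promoters were tested there. Each promoter was given the mean asinh score of its listed fragments without the Basal-only ones, and 4414 promoters, 939 of them with a Basal-only fragment, entered a limma fit over all 15 libraries. None of the 939 passed an adjusted p of 0.05 in Late against Early, Reactivated against Late or Reactivated against Early. Of all promoters 3 were higher in Late than in Early (0.068%) and 3 were lower in Reactivated than in Late (0.068%). There were 0 in the other directions and in Reactivated against Early (0%). Tgm2, Egfl6 and Vangl2 were the 3 in both comparisons, each with a mean of 0 in Early and in Reactivated. Whether these values of 0 follow from the listing, as for promoters named below, was not tested. With each set of libraries that share many fragments entered as its mean (9 sets), and with the replicate number as a block, none of all 4414 promoters passed in any of the 3 comparisons. At an unadjusted p under 0.05, in the fit of single libraries, there were 36, 83 and 65 of the 939 in these comparisons, and 325, 640 and 527 of the 4414. The median difference was 0.06, 0.21 and 0.27 for the 939 and 0.07, 0.19 and 0.27 for all.

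The promoter nearest to the threshold was that of Pappa2, a protease that cleaves IGF-binding proteins. The mean asinh score of its other fragments was 1.81 in Late and 0 in Early and in Reactivated, a difference between Late and Early of 1.81 (SE 0.407, limma adjusted p = 0.126) and between Reactivated and Late of -1.81 (limma adjusted p = 0.108). Srgap2, a regulator of dendritic spine development, had 2.20 in Late and 0 in Early (SE 0.560, limma adjusted p = 0.217). Nfil3 had 2.01 in Late and 0 in Reactivated (SE 0.537, limma adjusted p = 0.231). In Reactivated against Early the lowest limma adjusted p, 0.359, was a tie, with Slc38a1, Grap2, Akap8l and Armcx4 among those that had it. Slc38a1, an amino acid transporter, had 0 in Reactivated and 1.71 in Early. In the other direction, Grap2 had 4.25 in Reactivated and 0 in Early, Akap8l 3.56 and 0, and Armcx4 2.68 and 0. The other fragments of Pappa2 (3) and Srgap2 (5) were scored in Late alone, and those of Slc38a1 (5) in Early alone. Grap2, Akap8l and Armcx4 had 1 other fragment each, scored in Reactivated alone. A fragment is listed only if some library scored it. For these promoters the values of 0 thus follow from the listing, and their p-values are no support for a difference.

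The tests of Reactivated rest on libraries 1 and 2 of that group, which listed 32 and 335 fragments. Left out together, 427 of the 939 promoters were higher and 9 lower in Reactivated than in Late, and 439 higher and 1 lower in Reactivated than in Early, beside 1920 higher and 65 lower and 2003 higher and 18 lower of all 4414. The median difference of the 939 was then 1.15 and 1.23, and that of all promoters 1.14 and 1.23, so the shift was common to the whole table. The Reactivated arm then consists of libraries 3 and 4, which share 95.7% of the fragments of the smaller, so these counts come from a pair that may not be independent. The scores carry no normalization stated in the sources used here, and depth and condition cannot be told apart in it.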

How the data were processed

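Promoter-capture Hi-C was measured in 15 libraries. The deposited table gives the authors' interaction score per library for pairs of a promoter and a HindIII fragment on build mm9, per the file headers and labels. The sources used here do not give the aligner, the scoring program or any normalization. Scores are whole numbers from 2 to 13683. A dot was read as 0 for the asinh scale and the limma fits, and as no score elsewhere. Mean Basal scores are thus means over the Basal libraries that scored a fragment.

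The 36353 listings were reduced to 33334 fragments by position. Of 954 promoters with a Basal-only fragment, 923 matched a RefSeq symbol and 28 a synonym. The promoter sequences are on another build (GRCm38.p6) than the fragments.

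Values were computed in Python 3.11.15 with pandas 2.3.3, numpy 2.4.6 and scipy 1.17.1, and drawn with matplotlib 3.10.9. Promoter means of asinh(score) entered limma 3.58.1 (R 4.3.3 and statmod 1.5.0), using robust moderation, a variance trend and Benjamini-Hochberg adjustment. The method was tested on simulated data, with a required recovery at a low spread only. Recovery at the spread of these libraries is not given here, so the power of the tests is not known. P-values measure the spread between libraries, some of which share most fragments.

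The members, gene lists and tests were chosen with earlier results of these data known. The genes to name were the highest scored in each pattern of Basal libraries (12, 8 and 6 fragments), the 6 promoters with most members 6 with the largest share among those with at least 5 listed fragments, up to 3 per list, and the 4 lowest, 4 just outside and 4 closest pairs. Clone names, olfactory receptors, microRNAs and predicted genes were skipped. Promoters scored in Basal alone, further members of lists and abutting fragments were named after their values were seen, and some genes the rule selects, or that tie with the last one taken, are left out.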

Additional observations from a re-analysis of the deposited data

Results flagged for a closer look

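Early replicate 2 listed 4.71% of the fragments scored in 2 or more Basal libraries, whereas the nearest other Early library listed 16.9%. The gap was 0.969 of the range of the 4 Early libraries. The same library listed 4.50% of all fragments in the table. Of 9 groups of values tested in this way 1 stood apart, and chance alone marks about 1 in 20.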

How the results depend on the processing

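The number of Basal-only fragments, 1117, fell to 84 when a score in all 3 Basal libraries was asked for and to 108 when a score in Basal 3 and 1 of the others was, the latter an alternative chosen after seeing the data. Leaving out each library in turn gave 88 (without Basal 1) to 1313 (without Early 1). The share scored in both Basal 1 and 2 became 100% and 77.8% under the first 2 rules and ran from 97.7% to 100% with a library left out. The median of the mean Basal score was 235.5, and over the 22 alternatives it ran from 157 (without Basal 1) to 296 (all 3 Basal libraries). All of these lay within the SD of the 3 Basal libraries' medians, 146. That margin is wide because the median of Basal 3 was only 11.5, so it does not show that the value is stable.

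For promoters with a Basal-only fragment, Late against Early gave 7 passing promoters with quantile normalization and 1 without Reactivated 1 and 2 together. It gave 0 to 2 with a library left out (2 without Late 1, 1 without Late 2 or Early 2). Of all 4414 promoters, with these 939 among them, 30 were higher and 9 lower with quantile normalization. Without Reactivated 1 and 2 together 15 were higher and 1 lower. Without Late 1, 12 were higher, without Late 2, 11, and without Early 2, 1 was higher and 6 lower. For the 939, Reactivated against Late gave 4 on the number of scored fragments, 3 with quantile normalization and 436 without Reactivated 1 and 2 together. It gave 0 to 24 with a library left out (23 without Reactivated 1, 24 without Reactivated 2, 2 without Late 1, 1 without Late 2). Of all 4414, 11 were higher and 8 lower on the number of scored fragments, and 2 and 18 with quantile normalization. Without Reactivated 1 and 2 together 1920 were higher and 65 lower. Leaving out Reactivated 1 gave 189 and 22, and leaving out Reactivated 2 gave 186 and 21. Without Late 1, 12 were lower, and without Late 2, 10. For the 939, Reactivated against Early gave 440 without Reactivated 1 and 2 together. It gave 0 to 23 with a library left out (23 without Reactivated 1, 22 without Reactivated 2, 1 without Early 2). Of all 4414, 2003 were higher and 18 lower without Reactivated 1 and 2 together. Leaving out Reactivated 1 gave 186 and 2, Reactivated 2 gave 181 and 2, and Early 2 gave 0 and 6. The cause was not tested. With each set of libraries that share many fragments entered as its mean, 0 passed in each comparison, and 0 of all promoters. With the replicate number as a block, 0 passed in each comparison. Same-numbered libraries did not deviate together (correlations from -0.07 to 0.06 over 12 pairs, with 3 of 12 libraries closest to their own number). Deviations within a group also carry the library sets and the unequal numbers of listed fragments. This check thus cannot decide whether the numbers pair the samples.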
